A study of Canis lupus familiaris with 2 samples.

Results

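The dystrophin-glycoprotein complex of the canine left superior fat pad was represented by 4 of the 1628 probe sets in the table of array values, 2 for DTNA (alpha-dystrobrevin) and 2 for DMD (dystrophin). The members were taken by gene name, as every probe set annotated to DTNA, DTNB, DMD, UTRN, DAG1, a sarcoglycan or a syntrophin. DTNA itself was selected on the same values, because its probe sets differed in opposite directions, so that contrast is a description and carries no test. Of the 16 genes of the complex that were looked for, 14 had no probe set in the table and are not analysed here, DTNB, UTRN and DAG1 among them. A further 446 probe sets carried no single gene symbol, and members among them could not be recognized.

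RNA came from the fat pads of mongrel dogs of either sex, in which the ganglionated plexuses of the atrium lie embedded. The lenti-control group was injected there with a lentivirus carrying a scrambled sequence, and the lenti-miR-206 group with a lentivirus overexpressing miR-206, a microRNA of muscle and nerve, and was sampled 2 weeks later. The same time for lenti-control, and the absence of atrial pacing in both groups, were taken from the study's methods and not from the array labels. Lentivirus was injected into the tissue at separate sites and not into 1 cell type. For its microRNA sequencing the paper states that fat was kept out of the RNA as far as possible. It does not describe how the RNA for the arrays was collected. Each group was read on 1 Affymetrix canine array, from a pool of RNA of 3 dogs. There was therefore no replicate and no estimate of the spread between dogs, and no test or p-value is given for any difference.

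The values are log2 intensities, so a difference of 1 is a 2-fold difference, and differences are always given as lenti-miR-206 minus lenti-control. Every probe set in the table differed by at least this much, and probe sets with smaller differences, of DTNA and DMD among others, are not analysed here. Being in the table is thus what selected every member, and the share with a given direction has to be read against the table. Of all probe sets, 75.1% were higher and 24.9% were lower in lenti-miR-206. Among the array's control probe sets, 13 for bacterial spike-in transcripts had a median log2 difference of -1.08, and 5 for GAPDH had a median of 1.31. Neither set is shown to be an unchanged level, and these control probe sets passed the same selection at 1. A direction that turns with either set is therefore marked below. Only a lower probe set can turn with the spike-in median, and only a higher one with the GAPDH median.

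Dystrophin is the long rod-like protein that ties the actin cytoskeleton of a muscle fibre to dystroglycan in the sarcolemma, and dystroglycan in turn binds laminin in the basement membrane. Sarcoglycans stabilize this link, and syntrophins and dystrobrevins sit on its cytoplasmic side as a scaffold for signalling proteins. Alpha-dystrobrevin binds dystrophin and syntrophins, is made in several splice forms that differ at the carboxyl end, and is present in heart and skeletal muscle as well as in nervous tissue. Loss of dystrophin in dogs causes a muscular dystrophy that also affects the heart.

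One DTNA probe set was lower and the other was higher in the lenti-miR-206 pool. Both carry the suffix s_at, which marks probe sets whose probes match more than 1 transcript. The probe set CfaAffx.27518.1.S1_s_at had a log2 intensity of 6.18 in lenti-control and 5.02 in lenti-miR-206. This is a log2 difference of -1.16, or a 2.24-fold lower level, which left 44.6% of the lenti-control level. The probe set CfaAffx.27521.1.S1_s_at had a log2 intensity of 5.51 in lenti-control and 7.13 in lenti-miR-206. The log2 difference of 1.62 corresponds to a 3.08-fold higher level. Which splice forms of alpha-dystrobrevin each set reads is not given in the sources used here, since no probe or transcript sequences were used.

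**Figure D1:**
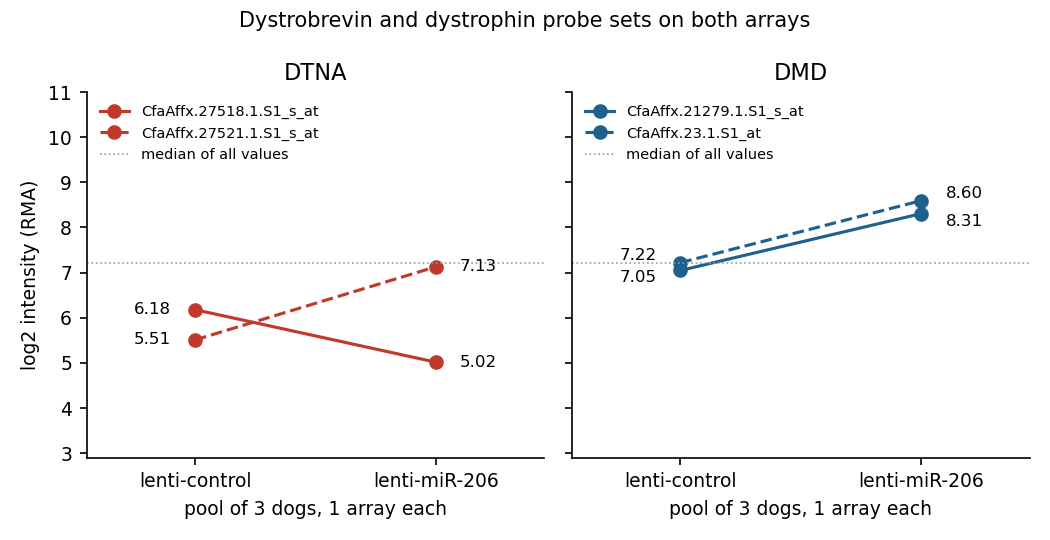
Log2 intensity (y axis) of the DTNA probe sets (left) and the DMD probe sets (right) on the lenti-control and the lenti-miR-206 array (x axis), where each point is 1 array of pooled RNA and there are no error bars because neither group has a replicate. The DTNA lines cross, one falling from 6.18 to 5.02 and the other rising from 5.51 to 7.13, while both DMD lines rise, and the dotted line is the median of all values, 7.21.

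Both DTNA probe sets were dim. Neither reached the median of all log2 values in the table, 7.21, on either array, although the higher value of CfaAffx.27521.1.S1_s_at was only 0.076 below it. For CfaAffx.27518.1.S1_s_at the lenti-miR-206 value of 5.02 was brighter than 5.84% of the table's probe sets on that array, and the lenti-control value was brighter than 37.1% of them. For CfaAffx.27521.1.S1_s_at the share was 23.5% on the lenti-control array and 40.0% on the lenti-miR-206 array. No detection calls were used, so the dimmer value of each DTNA probe set is not shown to be above background, and neither fold is shown to be exact. A higher value of a dim probe set on one array is a difference in signal at these probes and does not state an amount of protein.

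The size of the DTNA differences was ordinary for the table. Of the 405 lower probe sets, 294 had a larger difference than CfaAffx.27518.1.S1_s_at, which lay 0.16 beyond the selection at 1. Of the 1223 higher probe sets, 375 had a larger difference than CfaAffx.27521.1.S1_s_at. The direction of each held with both control references, but the sizes did not. Only the spike-in median could have turned the lower probe set, and only the GAPDH median the higher one. Relative to the spike-in median the lower probe set had a log2 difference of -0.087, close to no difference, and the higher one had 2.70. Relative to the GAPDH median the same probe sets had -2.47 and 0.31. The distance between both sets, 2.78 on the log2 scale, is the same under any shift of a whole array.

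**Figure D2:**
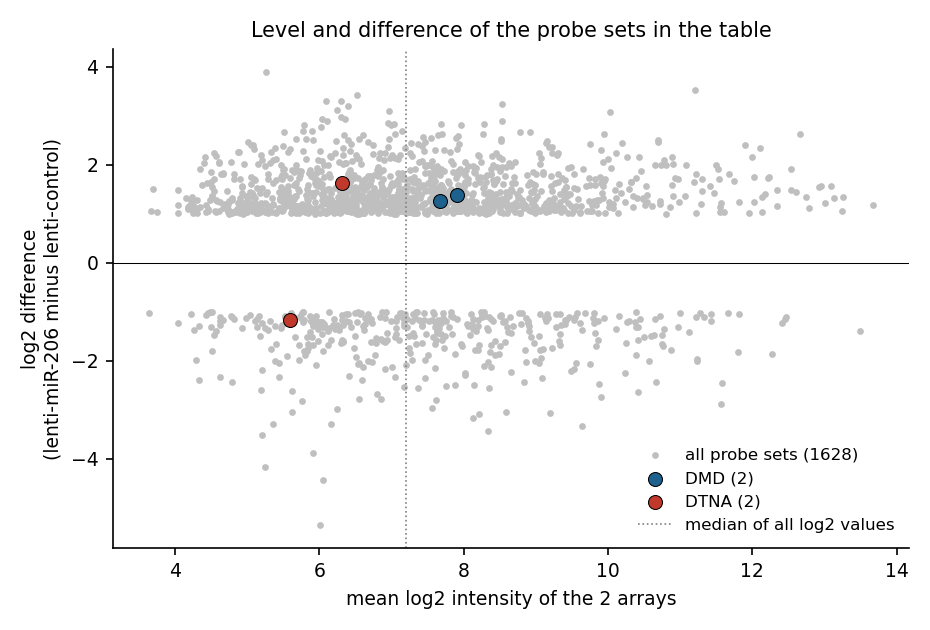
Difference of the log2 values of lenti-miR-206 minus lenti-control (y axis) against the mean log2 intensity of both arrays (x axis) for the 1628 probe sets of the table (grey), with the probe sets of DTNA and DMD in colour and the median of all log2 values as a dotted line. The band between -1 and 1 is empty because of the selection, DTNA lies to the left of the dotted line on both sides of the band, and DMD lies to the right of it and above the band.

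The distance between the DTNA probe sets can be described beside that of other genes. The table holds 269 genes with more than 1 probe set. Their median distance between the lowest and the highest log2 difference was 0.30, and that of DTNA was 2.78. Since no difference under 1 is in the table, opposite directions alone give a distance of at least 2, so the high rank of DTNA follows from the trait it was chosen for. Only CCK, which encodes cholecystokinin, also reached this floor, with 2.02, and its probe sets were both lower. In the other 268 genes all probe sets of a gene had one direction. Genes whose probe sets were all dim, as those of DTNA were, had somewhat larger distances, with a median of 0.41 over 27 genes without DTNA. Among the 15 other genes read by a pair of s_at probe sets the median was 0.26 and the largest 0.84. DTNA was chosen for this contrast, and the selection leaves out probe sets of the other genes that differed little, so their agreement may be overstated.

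**Figure D3:**
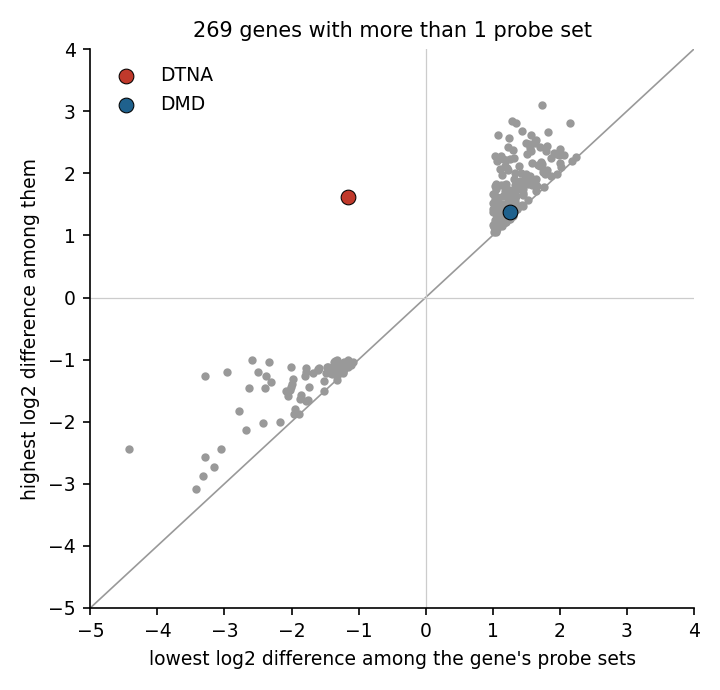
Lowest (x axis) and highest (y axis) log2 difference among the probe sets of each of 269 genes with more than 1 probe set, where each point is a gene and the diagonal marks probe sets that do not differ from each other. DTNA, at -1.16 and 1.62, is the only gene above 0 on one axis and below 0 on the other, and DMD lies near the diagonal at 1.26 and 1.37.

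DTNA is also a gene with many annotated transcripts. In the RefSeq annotation of the dog assembly UU_Cfam_GSD_1.0 it has 33 transcript models, against a median of 2 over the 822 named genes of the table that the annotation holds, and 3 of these genes have more. DMD has 1 model in the same annotation. Such a count describes the annotation and not the transcripts that a gene makes in this tissue. Whether the DTNA probe sets read different models was not tested.

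The dystrophin transcript was higher in lenti-miR-206 with both of its probe sets. The probe set CfaAffx.23.1.S1_at, annotated to the RefSeq transcript of DMD, had a log2 intensity of 7.22 in lenti-control and 8.60 in lenti-miR-206. The log2 difference was 1.37, or 2.59-fold. The probe set CfaAffx.21279.1.S1_s_at had 7.05 in lenti-control and 8.31 in lenti-miR-206, a log2 difference of 1.26 and 2.39-fold. These 2 estimates lay 0.12 apart, and 212 of the 269 genes with more than 1 probe set had a larger distance. Both DMD probe sets exceeded the median of all log2 values on the lenti-miR-206 array. Of the 1223 higher probe sets, 585 and 730 had a larger difference than these. Relative to the spike-in median the log2 differences were 2.45 and 2.34. Relative to the GAPDH median they were 0.068 for CfaAffx.23.1.S1_at and -0.048 for CfaAffx.21279.1.S1_s_at, so dystrophin and the GAPDH controls were higher to nearly the same degree and the direction of the latter probe set turns with that reference.

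Counted together, 3 of the 4 probe sets of the complex were higher and 1 was lower, close to the 75.1% and 24.9% of the whole table. With each gene represented by its probe set of the highest mean, both DTNA and DMD counted as higher, where 74.2% of the 823 named genes did. For DTNA this choice decides the answer, since the mean of both probe sets gave a log2 difference of only 0.23 in place of 1.62.

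Of 35 genes for proteins that bind the complex or lie beside it, 5 were in the table, 4 of them higher and 1 lower, where 74.2% of all named genes were higher. They had a median log2 difference of 1.32 against 1.17 over all named genes. ANK3 encodes ankyrin-G, which holds dystrophin and dystroglycan at the membrane. Its brightest probe set had 9.11 in lenti-control and 10.78 in lenti-miR-206, a log2 difference of 1.67, and its 4 probe sets ranged from 1.01 to 1.67, of which those with 1.01 and 1.18 turn lower relative to the GAPDH controls, to -0.30 and -0.13. CAV3, the caveolin of muscle, which binds dystroglycan, had 8.09 and 9.41, a log2 difference of 1.32. CMYA5, a muscle protein that binds dysbindin, had a log2 difference of 1.71 with its brightest probe set and 2.02 and 2.12 with its others. The probe set with 2.12 was dim. DYSF, the membrane repair protein dysferlin, had 8.16 and 9.23, a log2 difference of 1.07 that turns to -0.24 relative to the GAPDH controls. The CAV3 difference, from its only probe set in the table, was 0.018 relative to the GAPDH controls.

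On the extracellular side the only listed laminin chain in the table was lower. LAMB1 encodes laminin beta-1, a chain of basement membrane laminins to which dystroglycan binds. With its brightest probe set it had 9.60 in lenti-control and 8.22 in lenti-miR-206, a log2 difference of -1.39, and its other probe sets had -1.24 and -1.13. All 3 remained lower relative to the spike-in median, at -0.31, -0.16 and -0.050, and the GAPDH median could not have turned them. Of the 19 genes listed for the sugar chains by which alpha-dystroglycan holds laminin, DOLK was the only one in the table. DOLK, the dolichol kinase that supplies the lipid carrier of the mannose donor, was dim, with 6.64 in lenti-control and 5.43 in lenti-miR-206, a log2 difference of -1.21.

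The costamere of integrins, vinculin and talin is a related attachment of the muscle fibre. Of 37 genes listed for it, 13 were in the table and all 13 were higher, where 74.2% of all named genes were. Their median log2 difference was 1.49, or 2.80-fold, against 1.17 over all named genes. All 25 of their probe sets were higher, where 75.1% of all probe sets were. By the brightest probe set of each gene, NEXN (nexilin, an actin-binding protein of the Z-disc), ITGB1BP2 (melusin, which binds integrin beta-1), ACTN2 (the alpha-actinin of the Z-disc) and PDLIM5 had the largest log2 differences, 1.96, 1.92, 1.70 and 1.64. ITGAV and ITGA6, which are integrin alpha chains, SORBS2 and the filamin FLNC had the smallest, 1.01, 1.02, 1.05 and 1.15. These last 4 turn lower relative to the GAPDH controls with these probe sets, and ITGA6 and SORBS2 were dim. With other probe sets the order differs, as PDLIM5 had 2.49, DES 2.37 and ITGAV 1.52. Of the integrins the 13 genes held only the alpha chains ITGAV and ITGA6, and they held neither vinculin nor talin. Markers of muscle cells overlap this list in ACTN2 and DES, and the median of the other 11 genes was 1.44. Only genes on the marker lists were left out, so the part of muscle cells in this value was not tested.

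Of 24 genes for repair of the sarcolemma and for caveolae, 5 were in the table, among them CAV3 and DYSF from the partners. POPDC1, a cAMP-binding membrane protein of heart muscle, had a log2 intensity of 6.23 in lenti-control and 8.03 in lenti-miR-206, a log2 difference of 1.79. PACSIN3, a membrane-bending protein, had a log2 difference of 1.15, which turns to -0.16 relative to the GAPDH controls. ANXA1, an annexin found in many cell types, was lower, with 11.25 in lenti-control and 9.74 in lenti-miR-206, a log2 difference of -1.51, and its 3 probe sets shared the direction.

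**Figure D4:**
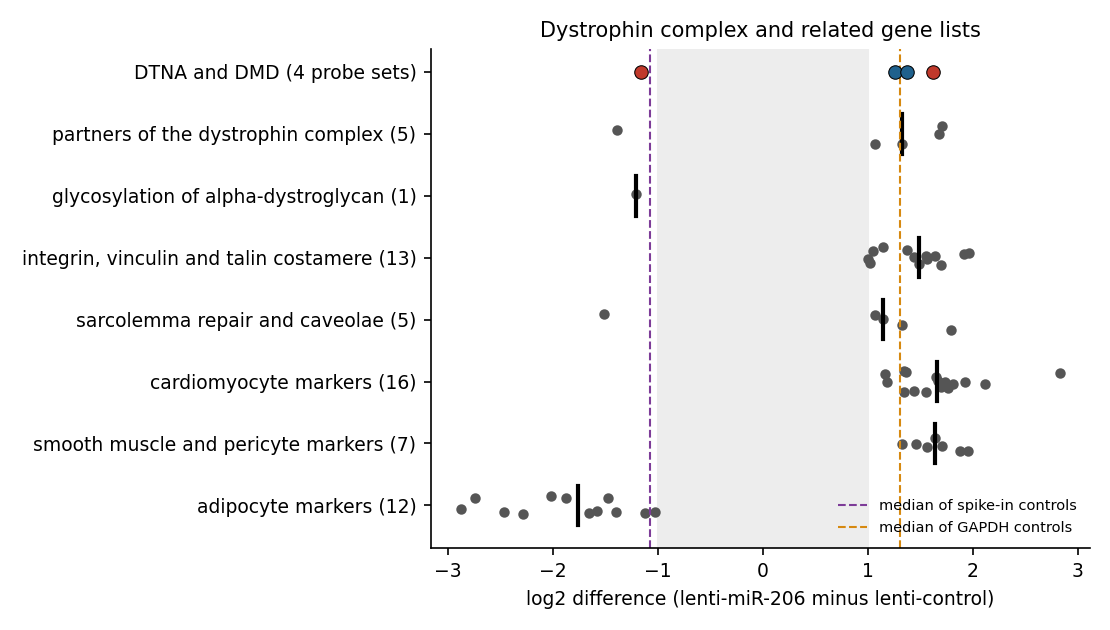
Difference of the log2 values of lenti-miR-206 minus lenti-control (x axis) for the DTNA (red) and DMD (blue) probe sets and of the genes of 7 lists (y axis, with the number in the table in brackets), where each grey point is a gene, black bars are medians, dashed lines are the medians of the control probe sets and the shaded band is empty because of the selection. DTNA lies on both sides of the band at -1.16 and 1.62, all 13 costamere genes lie above 1, and the medians of the cardiomyocyte and adipocyte markers are 1.66 and -1.76. Of all named genes of the table, 74.2% were higher.

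Markers of several cell types differed between the pools in the same values. Of all 823 named genes of the table, 74.2% were higher, and their median log2 difference was 1.17. Of 21 cardiomyocyte markers, 16 were in the table and all 16 were higher, from MYH7 at 1.17 to NPPB at 2.83 on the log2 scale around a median of 1.66. Their summed linear intensity was 44524 in lenti-control and 123785 in lenti-miR-206. Of 16 smooth muscle and pericyte markers 7 were in the table and all were higher, with a median of 1.64 and sums of 1778 and 5578. Of 18 skeletal muscle markers only ACTA1 and TNNT1 were in the table, with 1.74 and 2.13. Of 22 adipocyte markers 12 were in the table and all were lower, with a median of -1.76 and sums of 48996 and 14159, and the lipid droplet protein CIDEA had the lowest at -2.87, while AQP7, the highest at -1.02, turns higher relative to the spike-in controls. FABP4, a fatty acid binding protein of the labelled tissue, was bright in both pools, with 14.20 and 12.80. The log2 differences of DMD, 1.26 and 1.37, and that of the higher DTNA probe set, 1.62, lay within the range of the cardiomyocyte markers. That range begins near the selection at 1, and these values also lay within that of the costamere genes, 1.01 to 1.96. Lying within it is thus not particular to cardiomyocytes. MYH7 and MYL7 of the cardiomyocyte list turn lower relative to the GAPDH controls, as one DMD probe set does. The other MYH7 probe set, at 1.81, stays higher, at 0.50.

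Alpha-dystrobrevin is also found in nervous tissue. Of 22 neuron markers 8 were in the table, 6 of them lower and 2 higher, where 74.2% of all named genes were higher. Their median log2 difference was -2.28, with sums of 1393 and 1187. These sums join genes of both directions and do not show the size of either. HAND2 had 7.20 in lenti-control and 9.14 in lenti-miR-206, and MAP1B had 7.67 and 8.91. STMN2 had 8.64 and 6.08, and CHGB had 8.27 and 3.84. The lower genes NEFL, NEFM, SNAP25 and GAP43 were dim, and without dim probe sets 2 neuron markers were lower and 2 higher, with a median of -0.66. CHGB had the lowest, -4.43 with its brightest probe set, and -2.43 and -2.82 with its others, which were dim. HAND2 and MAP1B had 1.94 and 1.24, the latter turning lower relative to the GAPDH controls. Of 14 glia markers S100B, MAL and PMP22 were in the table and all 3 were lower, at -2.96, -1.45 and -1.19, with sums of 1622 and 520. Another S100B probe set, which was dim, had -1.19. Of 12 endothelial markers only the dim MMRN1 was in the table, at -1.15. The lower DTNA probe set, at -1.16, had the direction of the glia and adipocyte markers in the table, of MMRN1 and of 6 of the 8 neuron markers. The higher one had that of the muscle markers and of 74.2% of all named genes. DTNA was chosen for having a probe set in each direction, so such matches were fixed by that choice. The part of these cell types in the DTNA and DMD values was not tested, and in pooled tissue a smaller number of cells of a type cannot be told apart from less RNA in each of them.

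The named genes whose pair of log2 values was nearest to that of CfaAffx.27518.1.S1_s_at were TMEM100, MAOA and ANGPTL4, by the Euclidean distance over both arrays. TMEM100 had 6.19 in lenti-control and 4.98 in lenti-miR-206, at a distance of 0.040, and MAOA and ANGPTL4 lay at 0.10 and 0.12. Nearest to CfaAffx.27521.1.S1_s_at were GUCY1A1, VLDLR and CALU, at 0.070, 0.076 and 0.11. GUCY1A1, a subunit of soluble guanylate cyclase, had 5.45 in lenti-control and 7.11 in lenti-miR-206. Likeness over 2 arrays describes brightness and difference only.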

How the data were processed

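Total RNA of 3 dogs per group was pooled, labelled with biotin and hybridized to 1 Affymetrix canine array per group. The deposited values are log2 intensities that the authors obtained with RMA, as named in the submitters' processing notes. RMA corrects background, normalizes arrays to each other and compresses the differences of dim probe sets. Its version, the genome build and the set of arrays that entered the normalization were not stated. The table holds 1628 probe sets and 19 controls, from 2.95 to 14.27, all differing by at least 1. Precision is limited by 1 array per group.

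Log2 differences (lenti-miR-206 minus lenti-control) were computed in pandas 2.3.3 and numpy 2.4.6 under Python 3.11.15, drawn with matplotlib 3.10.9, and the counting was tested on simulated data. Platform symbols were updated through Entrez identifiers with UU_Cfam_GSD_1.0. A gene was represented by its probe set of the highest mean. Dim means that the higher value lay below the median of all values. Named were all member probe sets, up to 4 genes at each end of a list and the 3 genes nearest each DTNA probe set. CCK, outside this rule, was named after its values were seen. DES, within the rule only by the smooth muscle list, was named among the costamere genes after its values were seen. Members and lists were chosen with earlier results of these data known. Alternatives were both control references, no dim probe sets, no s_at or x_at probe sets, 3-fold and the mean of all probe sets. For the marker lists these were added after seeing the data.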

Additional observations from a re-analysis of the deposited data

How the results depend on the processing

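No paired analysis was possible because each group is 1 array. Of the 3 higher and 1 lower probe sets of the complex, 2 and 0 were left after dim probe sets were removed, 1 and 0 after s_at and x_at probe sets were, 1 and 0 at 3-fold, 3 and 1 relative to the spike-in controls, and 2 and 2 relative to the GAPDH controls. DTNA as 1 gene had 0.23 with the mean of its probe sets in place of 1.62, and neither removal leaves a DTNA probe set. Relative to the spike-in controls the log2 differences were -0.087 and 2.70 for the DTNA probe sets and 2.34 and 2.45 for those of DMD, and relative to the GAPDH controls -2.47, 0.31, -0.048 and 0.068, where the first of DMD turned. Relative to GAPDH the genes higher and lower were 3 and 2 for the partners, 9 and 4 for the costamere and 2 and 3 for membrane repair. With s_at and x_at probe sets removed no partner was lower (0, since LAMB1 has only such probe sets), and without dim ones no glycosylation gene was left (0). The other counts of these 4 lists stayed within 1.5 times of those given. For the marker lists, run after seeing the data, neuron genes higher and lower were 2 and 2 without dim ones, 1 and 4 with s_at and x_at removed and 1 and 7 relative to GAPDH, and MMRN1 was lost in both removals. With s_at and x_at removed 10 cardiomyocyte and 1 skeletal muscle gene were left higher, relative to GAPDH 2 cardiomyocyte genes were lower, and relative to the spike-in controls 1 adipocyte gene was higher. Other marker counts stayed within 1.5 times. Turning lower relative to GAPDH were DYSF (-0.24), FLNC (-0.16), ITGA6 (-0.28), ITGAV (-0.30), SORBS2 (-0.25), PACSIN3 (-0.16), MAP1B (-0.066), MYH7 (-0.14) and MYL7 (-0.13), and AQP7 turned higher relative to the spike-in controls (0.055). ITGAV and MYH7 each kept their direction with their other probe set. The limits are the single array per group, the selection at 2-fold and the dimness of both DTNA probe sets.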
